A study of Mus musculus with 12 samples.

Results

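The enzymes that make serine and pass its carbon on to folate and methionine were measured in naïve CD8+ T cells of the mouse. The cells had been cultured for 6 h with or without stimulation. The 9 genes were picked by symbol as rows of the count table, and all 9 were present among its 14323 symbols. They fall into 4 steps. Phgdh, Psat1 and Psph synthesise serine. Shmt1 and Shmt2 split it into glycine and a one-carbon unit. Mthfd1, Mthfd1l and Mthfd2 carry that unit on folate, and Mat2a makes S-adenosylmethionine.

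The cells were splenic T cells of wild type mice, gated as TCRβ+CD8+CD62L+CD44-, and 100000 of them went into each well for 6 h of culture on antibodies fixed to the plastic. Each of 3 mice gave 1 library in each of 4 groups: unstimulated with isotype, unstimulated with anti-LAIR-1, anti-CD3 with isotype, and anti-CD3 with anti-LAIR-1, with every antibody coated at 2.5 µg/ml. Anti-CD3ε engages the T cell receptor complex, and anti-LAIR-1 (2C7) engages LAIR-1, an inhibitory receptor for collagen. Unstimulated wells held isotype antibody in place of anti-CD3, so cells of all 4 groups had been sorted, stained and cultured on coated plastic. A plate-bound antibody stands in for collagen here, and the ages of the mice were not given in the labels.

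Library totals ran from 1781218 to 2957929 counts in unstimulated cells with isotype and from 3547294 to 3589194 with anti-LAIR-1. They ran from 3478294 to 6555730 with anti-CD3 and isotype and from 4889990 to 7725545 with anti-CD3 and anti-LAIR-1, so that 3 counts were worth 0.404 to 1.61 CPM, counts per 1000000 of the normalised library total, across the 12 libraries. Mitochondrially encoded genes took 17.6 to 20.9% of the counts in unstimulated and 11.5 to 13.2% in anti-CD3 libraries. The summed level of 7 T cell genes, from a list of CD3, CD8 and other T cell genes, was 3797 to 4243 CPM in unstimulated libraries. With anti-CD3 it was 2338 to 2413 CPM with isotype and 2843 to 3263 CPM with anti-LAIR-1. The summed level of 6 B cell genes was at most 10.2 CPM and that of 3 CD4 lineage genes at most 4.84 CPM. The summed level of 6 naïve T cell genes was 4663 to 5187 CPM in unstimulated libraries, 417 to 512 CPM with anti-CD3 and isotype and 645 to 807 CPM with anti-CD3 and anti-LAIR-1. Summed over 6 myeloid genes, of which 5 stayed below 5 CPM in each library, the level was 49.5 to 64.1 CPM in unstimulated and 29.3 to 44.9 CPM in anti-CD3 libraries. That of 3 NK cell genes was 23.6 to 41.0 CPM in unstimulated libraries. With anti-CD3 it was 39.2 to 48.3 CPM with isotype and 27.9 to 36.9 CPM with anti-LAIR-1. In each group 2 of these 3 NK cell genes stayed below 5 CPM in every library, so most of this sum came from the remaining gene. Erythroid genes, of which 2 were in the table, summed to at most 1.22 CPM. The part of depth, mitochondrial share and these markers in the results that follow was not tested.

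Serine can be taken up or built from a glycolytic intermediate in 3 enzymatic steps. Its side chain carbon is then moved to tetrahydrofolate, in mitochondria by Shmt2 and in the cytosol by Shmt1. In mitochondria the folate-bound unit is oxidised by Mthfd2 and released as formate by Mthfd1l, and in the cytosol Mthfd1 captures formate again for purine and thymidylate synthesis. The methionine cycle, which Mat2a feeds with S-adenosylmethionine, supplies methyl groups to DNA, RNA and proteins. T cells are known to draw on this network when they leave quiescence and prepare to divide.

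The bases just upstream of the start sites of 5 of these genes are shown because the members moved together under anti-CD3, as described next. They were taken from RefSeq promoter windows on the mm10 build, run 5′ to 3′ on the strand of the gene from position -120 to -11 relative to the start site, and carry CCAAT or its reverse complement ATTGG in capitals.
Shmt1 (chr11:60811276-60811385, minus strand): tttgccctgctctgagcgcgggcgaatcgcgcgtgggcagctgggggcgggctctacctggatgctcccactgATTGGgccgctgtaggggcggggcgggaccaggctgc
Mthfd2 (chr6:83317615-83317724, minus strand): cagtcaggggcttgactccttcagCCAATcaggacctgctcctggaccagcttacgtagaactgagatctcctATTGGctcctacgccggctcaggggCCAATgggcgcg
Psat1 (chr19:15925070-15925179, minus strand): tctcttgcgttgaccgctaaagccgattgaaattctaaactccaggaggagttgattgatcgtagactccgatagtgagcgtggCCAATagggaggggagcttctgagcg
Mthfd1 (chr12:76255112-76255221, plus strand): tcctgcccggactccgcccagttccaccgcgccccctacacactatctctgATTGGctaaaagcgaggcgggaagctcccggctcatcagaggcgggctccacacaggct
Shmt2 (chr10:127522455-127522564, minus strand): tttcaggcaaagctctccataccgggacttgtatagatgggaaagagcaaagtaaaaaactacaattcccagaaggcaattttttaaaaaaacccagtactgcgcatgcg
All 9 members matched the RefSeq promoter table, with 10 windows because Psat1 has 2. The Psat1 window shown holds CCAAT, and its other window holds neither CCAAT nor ATTGG. In the full window of 250 bases before to 50 after the start site, CCAAT or ATTGG was present in 7 of the 10 member windows and in 37.4% of all 32851 windows, and this motif was chosen after the member windows had been read. The GC box GGGCGG, on either strand, was present in 6 of 10 member windows and in 35.7% of all. Mthfd2 carried 3 CCAAT matches between positions -96 and -22, and Shmt2 had none. The E-box CACGTG, bound by MYC-type factors, was in none of the member windows and in 7.15% of all. The amino acid response core TGATGCAA was in none of them and in 0.895% of all, and the cyclic AMP response element TGACGTCA was in none of them and in 1.79% of all. Both strands were searched for each motif, and no 2 of these motifs contain one another. A match describes letters in a window and does not show that a factor was bound. For the last 3 motifs, 10 windows at such low shares can easily hold none. Their absence therefore does not show that a factor cannot bind. A link between any motif and the response was not tested.

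The first question was how these enzymes respond to T cell receptor stimulation. With isotype, all 9 transcripts rose with anti-CD3 (edgeR, adjusted p from 4.34e-17 for Shmt1 to 0.00403 for Psph), against 35.3% of the 8690 genes tested that rose. In all 9, the anti-CD3 libraries lay above the unstimulated ones without overlap, as did 37.8% of the genes tested. The median log2 fold change of the members was 2.17, ranging from 0.67 to 5.67, and that of all genes tested was -0.03. The summed level of the 9 transcripts was 775 ± 65.2 CPM (SD, n = 3) in unstimulated and 3664 ± 118 CPM in anti-CD3 libraries. In each of the 4 groups most of this sum was Shmt2 and Mat2a. In isotype libraries their means were 341 and 255 CPM unstimulated and 1571 and 1096 CPM with anti-CD3. Such values are shares of each library, so fewer cells with a transcript and less of it per cell cannot be told apart.

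Phgdh, which oxidises phosphoglycerate in the first step of serine synthesis (mm10, chr3:98313170-98339990), was at 19.5, 17.1 and 16.1 CPM in the unstimulated isotype libraries of mice 1 to 3. It was at 38.3, 40.0 and 43.7 CPM with anti-CD3. The groups did not overlap, and the increase was 2.24-fold (log2 1.16, SE 0.17, edgeR adjusted p = 2.39e-06). A processed pseudogene, Phgdh-ps1, is annotated on chromosome 7 and has no row of its own, and reads that matched several places equally well had been discarded.

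Psat1, the aminotransferase of the second step (chr19:15904678-15947337), responded more. It was at 57.5, 36.3 and 61.3 CPM in unstimulated cells, lowest in mouse 2. With anti-CD3 the values were 342, 338 and 399 CPM, highest in mouse 3. The rise was 6.83-fold (log2 2.77, SE 0.14, edgeR adjusted p = 2.03e-14).

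Psph, the phosphatase that releases serine (chr5:129765558-129787449), changed least of the 9. Its unstimulated values were 19.2, 19.6 and 14.5 CPM. Its anti-CD3 values were 24.8, 29.4 and 33.1 CPM. The lowest stimulated library was thus above the highest unstimulated one, by a smaller margin than for Psat1. The rise was 1.59-fold (log2 0.67, SE 0.20, edgeR adjusted p = 0.00403), and the largest adjusted p for Psph under any alternative was 0.0465.

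**Figure D1:**
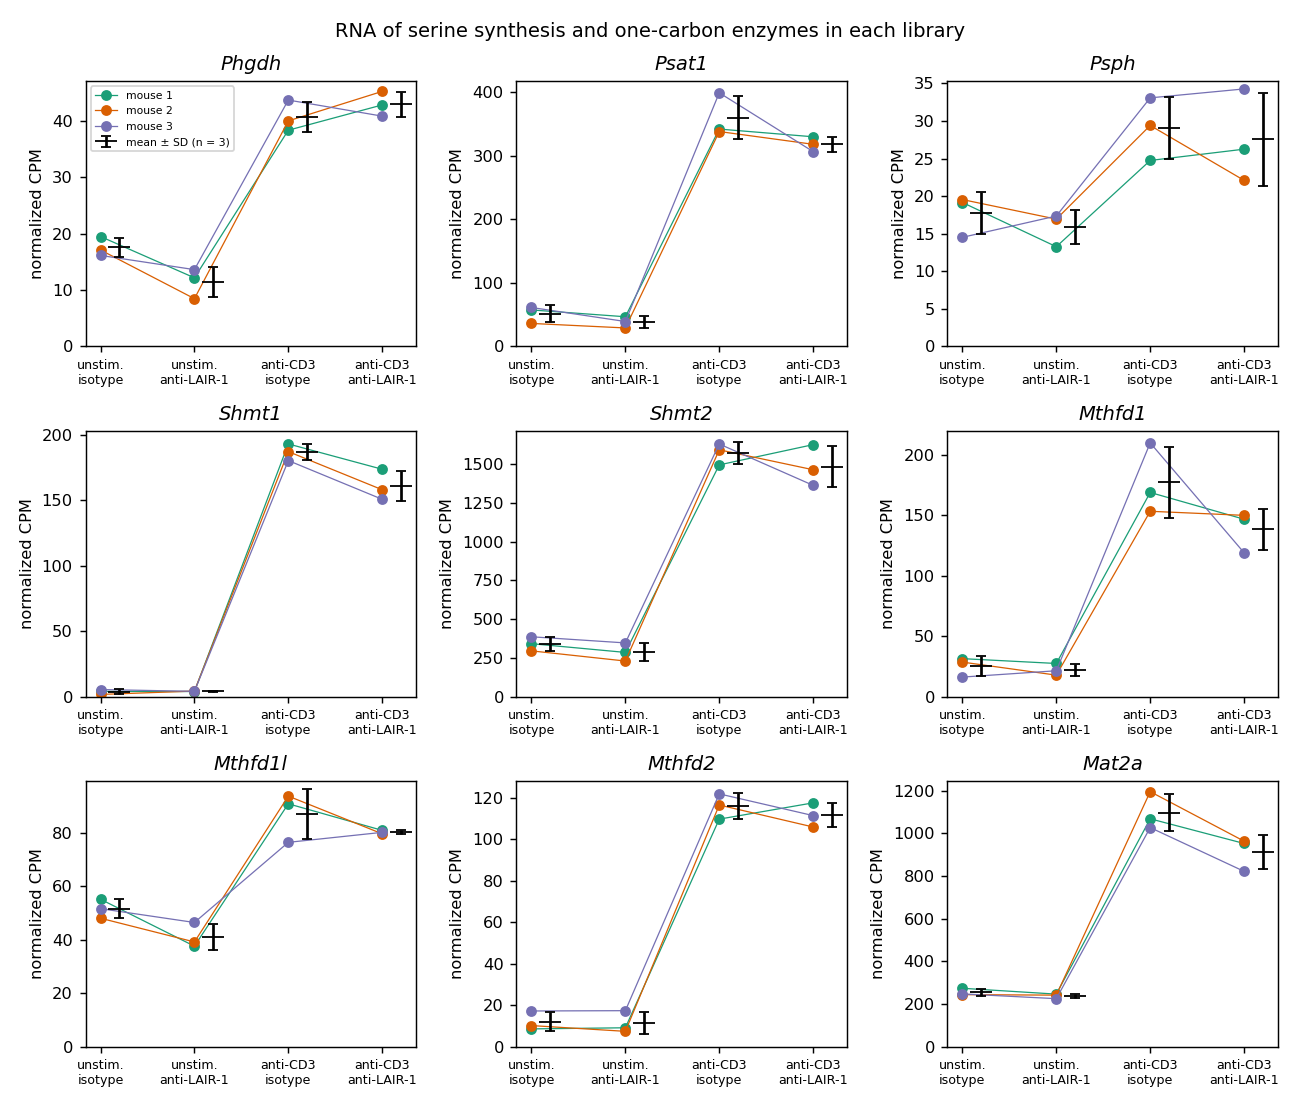
Normalised CPM (y axis) of each of the 9 enzyme transcripts in the 4 groups (x axis), with 1 point per mouse, lines joining the libraries of a mouse, and the mean ± SD of 3 mice in black. The anti-CD3 libraries sit above the unstimulated ones for each transcript. Shmt1 lies between 1.63 and 5.38 CPM in unstimulated and between 151 and 193 CPM in anti-CD3 libraries.

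The serine hydroxymethyltransferases differed most from each other. Shmt1, the cytosolic enzyme (chr11:60788104-60811718), was close to the detection limit in unstimulated isotype libraries, with 12, 4 and 10 counts or 3.96, 1.63 and 5.38 CPM. With anti-CD3 it had 639, 884 and 1122 counts or 193, 187 and 180.2 CPM. The fitted rise was 50.8-fold (log2 5.67, 95% interval 5.26 to 6.08, edgeR adjusted p = 4.34e-17), which ranked 42nd from the top of 8690 genes. With so few unstimulated counts the size of this fold is less certain than its direction, since 26 counts in all have an exact Poisson interval of 17.0 to 38.1. That interval covers counting error only.

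Shmt2, the mitochondrial enzyme (chr10:127517123-127522444), was readily detected in unstimulated cells, at 341, 295 and 386 CPM. It reached 1494, 1591 and 1629 CPM with anti-CD3. The groups were far apart and the rise was 4.51-fold (log2 2.17, 95% interval 1.97 to 2.37, edgeR adjusted p = 2.02e-15), so its interval did not overlap that of Shmt1. Shmt1 took 0.549 to 1.38% of the counts of both genes in unstimulated isotype libraries and 9.96 to 11.4% with anti-CD3. This is a share of 3′-end counts in which the reads of a gene depend on its 3′ end, so the change in share can be read but not the ratio of molecules.

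The 3′ end of Shmt1 overlaps 184 bases of Smcr8, a gene on the opposite strand, and whether counting used strand was not stated. Smcr8 itself was at 10.9, 10.6 and 14.5 CPM in unstimulated and 7.85, 11.6 and 12.2 CPM in anti-CD3 isotype libraries. It showed no rise that accompanied Shmt1 (log2 fold change -0.17, SE 0.26, edgeR adjusted p = 0.576). The 3′ end of Shmt2 overlaps 32 bases of Ndufa4l2, which has no row in the table.

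Among the folate enzymes, Mthfd2, the mitochondrial dehydrogenase and cyclohydrolase (chr6:83305691-83325908), rose most. It was at 8.59, 10.2 and 17.2 CPM in unstimulated cells, highest in mouse 3, and at 109.6, 116 and 122 CPM with anti-CD3. The rise was 9.88-fold (log2 3.30, SE 0.18, edgeR adjusted p = 6.35e-14), the 142nd largest of 8690.

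Mthfd1, the cytosolic enzyme of 3 activities (chr12:76255298-76319803), was at 31.4, 28.5 and 16.1 CPM in unstimulated cells. It was at 169, 153 and 209.8 CPM with anti-CD3. Mouse 3 had both the lowest unstimulated and the highest stimulated value. The rise was 6.62-fold (log2 2.73, SE 0.17, edgeR adjusted p = 8.93e-13).

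Mthfd1l, the mitochondrial formyltetrahydrofolate synthetase (chr10:3973118-4167081), rose less than its partners. It went from 55.2, 48.1 and 51.6 CPM to 90.9, 93.7 and 76.5 CPM. The groups did not overlap, and the rise was 1.63-fold (log2 0.71, SE 0.13, edgeR adjusted p = 3.34e-05). Its 95% interval of 0.44 to 0.97 lay below those of Mthfd1, 2.38 to 3.07, and Mthfd2, 2.94 to 3.67.

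Mat2a, the catalytic subunit of S-adenosylmethionine synthetase outside the liver (chr6:72432799-72439558), was at 274, 244 and 247 CPM in unstimulated cells. It was at 1068, 1195 and 1027 CPM with anti-CD3. The rise was 4.19-fold (log2 2.07, SE 0.09, edgeR adjusted p = 2.48e-15), and the smallest stimulated value was several times the largest unstimulated one.

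**Figure D2:**
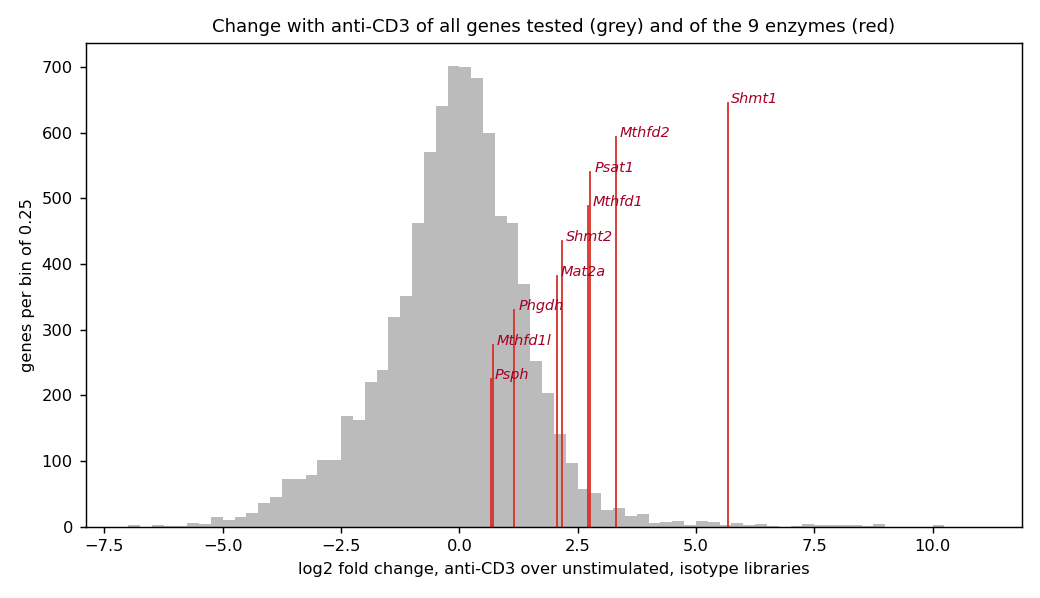
Histogram of log2 fold changes (x axis, anti-CD3 over unstimulated, isotype libraries) for the 8690 genes tested, in bins of 0.25 (y axis, genes per bin), with the 9 enzymes as red lines whose heights only keep the names apart. The enzymes lie from 0.67 for Psph to 5.67 for Shmt1, all to the right of the median of -0.03.

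In the presence of anti-LAIR-1 all 9 transcripts rose with anti-CD3 as well (edgeR, adjusted p from 7.41e-16 for Shmt1 to 0.00100 for Psph), against 36.4% of 9000 genes tested that rose and 72.7% called in either direction. All 9 groups were again without overlap, compared with 37.6% of genes. The median log2 fold change of the members was 2.36, ranging from 0.78 for Psph to 5.30 for Shmt1, beside -0.04 for all genes. These libraries are separate from the isotype ones but come from the same 3 mice.

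Unstimulated Shmt1 was also low with anti-LAIR-1, at 3.87, 4.24 and 4.01 CPM from 14, 16 and 15 counts. Cells given both antibodies reached 174, 158 and 151 CPM, a 39.4-fold rise (log2 5.30, SE 0.15). Its share of Shmt1 and Shmt2 counts was 1.14 to 1.81% in unstimulated and 9.65 to 9.96% in stimulated libraries. Phgdh rose 3.74-fold (log2 1.90, SE 0.17) in the presence of anti-LAIR-1, from 12.2, 8.47 and 13.6 CPM to 42.8, 45.2 and 40.8 CPM. The stimulated levels of Phgdh overlapped those with isotype, while the unstimulated ones lay below.

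**Figure D3:**
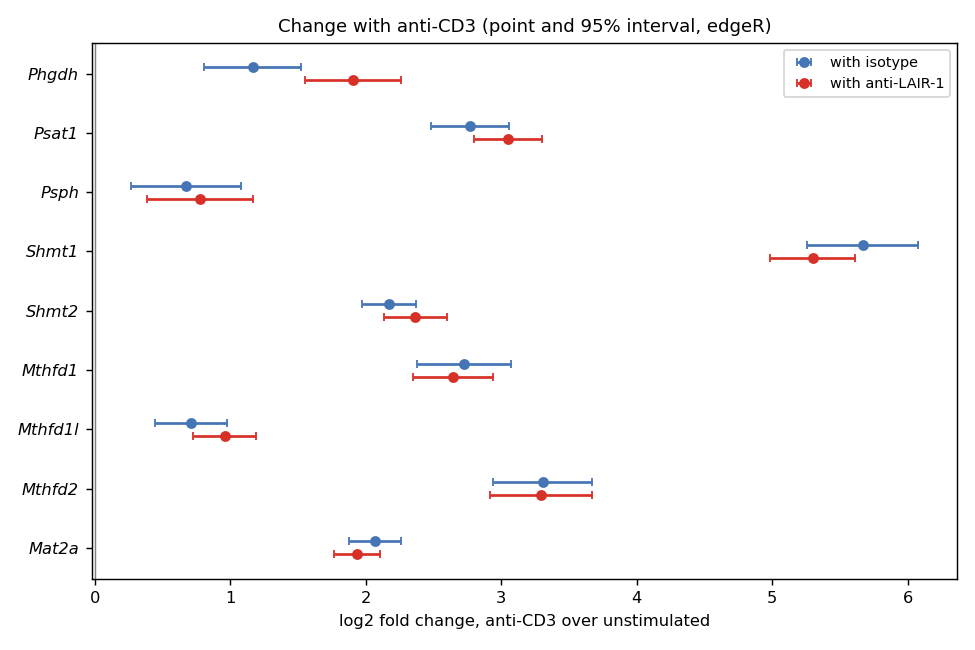
Log2 fold change with anti-CD3 (x axis) of each enzyme transcript (y axis), fitted by edgeR in isotype libraries (blue) and in anti-LAIR-1 libraries (red), as point and 95% interval. All 18 intervals lie above 0, and Phgdh, at 1.16 and 1.90, is the transcript whose intervals do not overlap.

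Whether anti-LAIR-1 altered the response to anti-CD3 was tested as the interaction of both antibodies over all 12 libraries. None of the 9 enzymes passed (edgeR, adjusted p from 0.157 to 0.976), while 2.07% of 9223 genes did, with 1.82% of genes higher and 0.249% lower. At an unadjusted p under 0.05 there was 1 of 9, against 12.2% of genes. That was Phgdh, whose response was larger with anti-LAIR-1 by 0.71 on the log2 scale (95% interval 0.21 to 1.21, unadjusted p = 0.00704, adjusted p = 0.157). For Shmt1 the difference was -0.40 with an interval of -1.12 to 0.32, and the low unstimulated counts set that width. The narrowest interval was that of Mat2a, -0.41 to 0.09 around -0.16. A p that misses the threshold does not show that the responses were alike, and the intervals give the differences that these libraries allow.

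In stimulated cells the question was whether LAIR-1 ligation lowered the induced transcripts. Here 8 of 9 fold changes were below 0, beside 49.4% of the 8800 genes tested, with a median of -0.12 for the members and 0.00 for all genes. When a library was left out, the median of the members ranged from -0.20 (without mouse 1 of the isotype group) to -0.11 (without mouse 3 of that group). Only Mat2a passed the test, and it was lower, as were 1.86% of genes, while none of the 9 was higher, beside 3.9% of genes that were. Psat1, Shmt1, Mthfd1 and Mat2a were lower with anti-LAIR-1 in all 3 mice, as were 18.4% of genes. The same 4 had groups that did not overlap, beside 11.1% of genes, and an unadjusted p under 0.05, beside 8.5% of genes that were lower at that limit. These changes are small next to the response to anti-CD3. The genes closest in profile to the members, named further below, also had log2 fold changes below 0 here, from -0.18 to -0.12. They were picked for that likeness on these same libraries, so their direction is not a separate result. The summed T cell genes and naïve T cell genes were higher with anti-LAIR-1 in the same libraries, without overlap. The summed NK cell markers, of which 2 of 3 stayed below 5 CPM, were lower without overlap. Most of that sum came from the remaining gene, so it does not measure the share of NK cells. The part of these markers in the values of the members was not tested. The comparison shares its isotype libraries with the first one, so a library that is high there lowers the value here.

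Mat2a was at 952, 963 and 822 CPM with anti-LAIR-1, each below the 1068, 1195 and 1027 CPM of the same mouse with isotype. It fell to 0.828 of the isotype level (log2 fold change -0.27, 95% interval -0.44 to -0.11, edgeR adjusted p = 0.0474). This call sat at the threshold. It was lost without any 1 of 5 of the 6 libraries (adjusted p = 0.0818 without mouse 1 and 0.186 without mouse 2 of the isotype group, 0.0596, 0.0670 and 0.164 without mouse 1, 2 and 3 of the anti-LAIR-1 group), and the log2 fold change stayed between -0.33 and -0.21.

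Mthfd1 had the lowest fold change of the members, -0.36 (95% interval -0.59 to -0.14), and an adjusted p of 0.0574 in edgeR. It was at 147, 149.8 and 119 CPM against 169, 153 and 209.8 CPM with isotype. Most of the difference lay in mouse 3, whose log2 ratio was -0.82, while the ratios of mice 1 and 2 were -0.20 and -0.03. DESeq2 gave Mthfd1 an adjusted p of 0.0380, and 0.178 with the mouse as a block.

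Shmt1, at 174, 158 and 151 CPM against 193, 187 and 180.2 CPM, had more even ratios of -0.15, -0.24 and -0.26 in the 3 mice. Its log2 fold change was -0.22 (95% interval -0.39 to -0.05, edgeR adjusted p = 0.123). Psat1 was at 329.9, 318 and 307 CPM against 342, 338 and 399 CPM, a log2 fold change of -0.19 (95% interval -0.34 to -0.03, edgeR adjusted p = 0.181), and the widest gap was again in mouse 3.

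For the other 5 members the groups overlapped. Shmt2 was at 1625, 1463 and 1362 CPM with anti-LAIR-1, above its isotype partner of 1494 CPM in mouse 1 and below the 1591 and 1629 CPM of mice 2 and 3. Phgdh was the member above 0, with a log2 fold change of 0.07 and a 95% interval of -0.17 to 0.30. Mthfd2 had an interval of -0.24 to 0.11, Mthfd1l of -0.32 to 0.09 and Psph of -0.46 to 0.23. The summed level of the 9 transcripts was 3275 ± 235 CPM (SD, n = 3) with anti-LAIR-1 and 3664 ± 118 CPM with isotype.

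**Figure D4:**
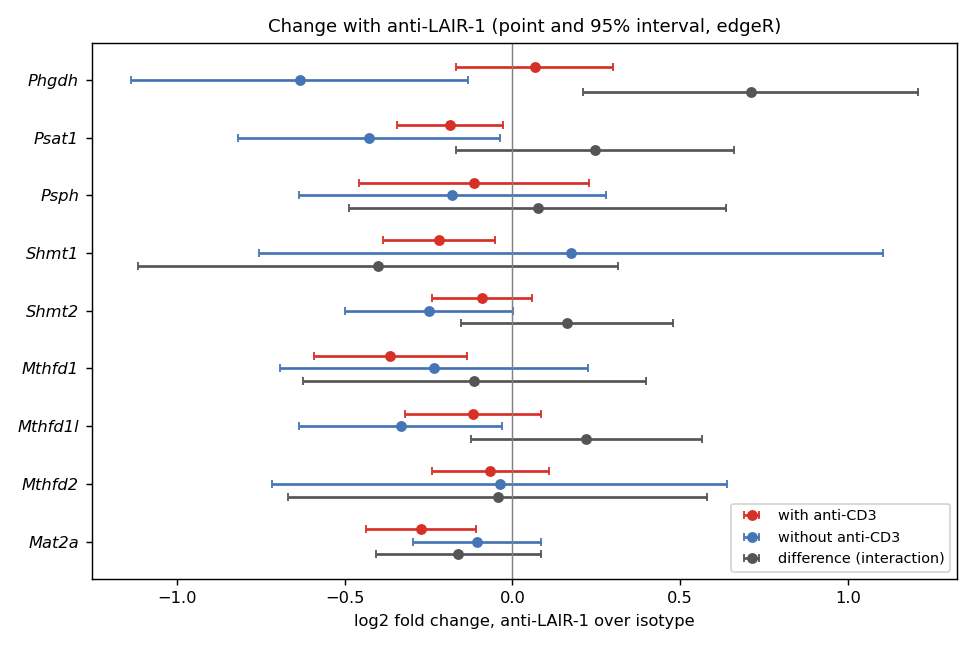
Log2 fold change of each enzyme transcript (y axis) with anti-LAIR-1 over isotype (x axis) in anti-CD3 libraries (red) and unstimulated libraries (blue), and the difference between both (grey), as point and 95% interval by edgeR. In stimulated cells the values range from -0.36 for Mthfd1 to 0.07 for Phgdh, and the Mat2a interval of -0.44 to -0.11 is the one behind an adjusted p under the threshold.

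In unstimulated cells, none of the 9 transcripts passed the edgeR test between anti-LAIR-1 and isotype, nor did any of the 8770 genes tested (0% called, all 9 adjusted p at 0.997), and DESeq2 called none of the 9. At an unadjusted p under 0.05 there were 3 members, all lower, beside 2.3% of genes that were lower at that limit and 4.38% in either direction. These were Phgdh, Psat1 and Mthfd1l. The count was 1 in DESeq2, and 0 without mouse 1 of the isotype group or mouse 2 of the anti-LAIR-1 group. It was 4 in edgeR with the mouse as a block, without a filter on low counts, and with all 12 libraries in 1 fit. Leaving out mouse 2 of the isotype group or mouse 3 of the anti-LAIR-1 group also gave 4. Phgdh, at 12.2, 8.47 and 13.6 CPM against 19.5, 17.1 and 16.1 CPM, and Mthfd1l, at 37.6, 39.2 and 46.5 CPM against 55.2, 48.1 and 51.6 CPM, had groups that did not overlap, as did 4.86% of genes. The log2 fold change was -0.63 for Phgdh (95% interval -1.14 to -0.13) and -0.33 for Mthfd1l (95% interval -0.64 to -0.03). Psat1, at 46.7, 29.1 and 39.3 CPM against 57.5, 36.3 and 61.3 CPM, overlapped between groups but was lower in each mouse. In all, 5 of 9 members were lower in all 3 mice, beside 13.2% of genes, and 8 of 9 fold changes were below 0, beside 50.4% of genes. The median log2 fold change of the members was -0.23, beside -0.002 for all genes. It was thus no nearer to 0 than the median of -0.12 in stimulated cells. The summed level was 669 ± 69.2 CPM (SD, n = 3) against 775 ± 65.2 CPM with isotype. With 4 to 16 counts per library, Shmt1 could not be resolved here, and its 95% interval was -0.75 to 1.10.

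The wider pathway was described with 6 lists of 49 genes, of which 42 had a row in the table. With anti-CD3 and isotype 31 passed the filter on low counts, 18 rose, 4 fell and 9 did not pass the test. Their median log2 fold change was 0.57, beside -0.03 for all genes tested, and the share that passed in either direction should be read against 71.3% of all genes, 35.3% higher and 36.1% lower.

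Of 4 genes of folate entry and reduction tested, 3 rose and 1 fell. Slc19a1, the reduced folate carrier of the plasma membrane, rose with a log2 fold change of 2.86 (SE 0.17), and Slc25a32, the mitochondrial folate carrier, with 2.44 (SE 0.25). Ggh, which removes glutamates from stored folate, fell by 1.35 on the log2 scale (SE 0.28).

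All 3 other folate enzymes tested rose. Gart and Atic, which use formyl folate to build purines, rose with log2 fold changes of 2.14 (SE 0.14) and 1.39 (SE 0.21). Mtfmt, which formylates the initiator tRNA of mitochondria, rose less, with a log2 fold change of 0.71 (SE 0.24, edgeR adjusted p = 0.00999), from 10.9, 8.55 and 10.2 CPM to 18.4, 15.2 and 16.7 CPM, and its adjusted p was 0.0912 in DESeq2 with the mouse as a block.

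In the methionine cycle and salvage list 5 of 11 rose and 1 fell. Mtap, which starts the recovery of methionine from methylthioadenosine, rose from 35.3, 48.1 and 44.1 CPM to 315, 310.0 and 320.1 CPM, a log2 fold change of 2.86 (SE 0.12). Mtrr, which reactivates methionine synthase, rose by 2.30 (SE 0.17) and Enoph1, a later salvage enzyme, by 1.66 (SE 0.21). The gene that fell was Mat2b, the regulatory partner of Mat2a, at -0.82 (edgeR adjusted p = 3.92e-06), named after its value was seen. The catalytic and the regulatory subunit of this enzyme thus moved in opposite directions with anti-CD3.

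Both glycine cleavage genes tested rose, Gcsh with a log2 fold change of 3.19 (SE 0.24) and Dld, which also serves other dehydrogenase complexes, with 0.57 (SE 0.16). In the transsulfuration and glutathione list 2 of 3 rose, Gss with 1.54 (SE 0.46) and Gclc with 0.32 (SE 0.12). Gss had at most 5 counts per unstimulated isotype library, and its adjusted p was 0.0924 in DESeq2 with the mouse as a block. The Gclc call was lost with upper quartile scaling (log2 fold change 0.15, adjusted p = 0.274), library totals only (0.0866) and DESeq2 with the block (0.0671), and without mouse 3 of the anti-CD3 isotype group (0.0933) or mouse 2 of the unstimulated isotype group (0.0822). Among 8 genes of other serine use 3 rose and 2 fell. Sptlc1, which joins serine to palmitoyl-CoA in sphingolipid synthesis, rose by 2.10 (SE 0.13). Serinc3 fell by 1.65 and Sfxn3, a sideroflexin of the family that carries serine into mitochondria, fell by 3.23 on the log2 scale (SE 0.15). Its relative Sfxn1, named after its value was seen, rose by 1.81 (edgeR adjusted p = 1.23e-10).

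**Figure D5:**
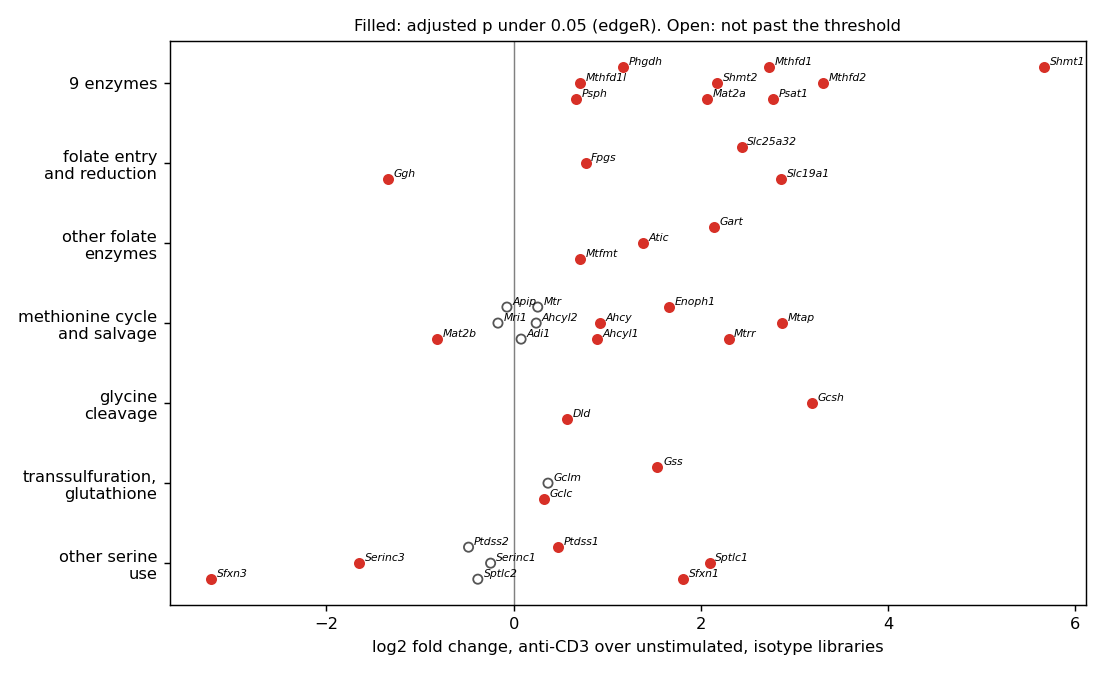
Log2 fold change with anti-CD3 in isotype libraries (x axis) of the 9 enzymes and of the tested genes of each pathway list (y axis), filled where the edgeR adjusted p was under 0.05 and open otherwise. The lists spread on both sides of 0, from -3.23 for Sfxn3 to 3.19 for Gcsh, whereas the 9 enzymes lie to the right of it.

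With anti-CD3 in the presence of anti-LAIR-1 19 of 32 listed genes rose, 6 fell, beside 36.3% of all genes that fell, and 7 did not pass. Between anti-LAIR-1 and isotype in stimulated cells, 2 of 34 passed, against 5.76% of all genes. Sfxn3 was higher, at 36.1, 47.1 and 56.3 CPM against 25.1, 15.9 and 18.3 CPM (log2 fold change 1.24, SE 0.18, edgeR adjusted p = 3.74e-04). Mtap was lower, at 260.4, 278 and 268 CPM against 315, 310.0 and 320.1 CPM (log2 fold change -0.24, SE 0.07, edgeR adjusted p = 0.0496). That call held in only 2 of 15 alternative fits. Among the others, it was lost with the mouse as a block (edgeR adjusted p = 0.0553) and with all 12 libraries in 1 fit (0.143). It was also lost without any 1 of the 6 libraries (adjusted p from 0.0858 to 0.160). In unstimulated cells none of 30 passed.

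Known regulators were looked at beside the enzymes. Myc, a transcription factor that drives many biosynthetic genes, rose with anti-CD3 from 48.6, 35.4 and 47.9 CPM to 615, 709.8 and 743 CPM (log2 fold change 3.94, SE 0.12). Atf4, which activates serine synthesis genes when amino acids are short, rose by 1.49 (SE 0.10), from 122, 135 and 136 CPM to 379, 359.7 and 395 CPM. Mettl16, the methyltransferase that controls splicing of the Mat2a transcript, rose by 2.03 (SE 0.17), from 19.2, 13.4 and 15.6 CPM to 58.6, 74.9 and 69.7 CPM. With anti-LAIR-1 in stimulated cells, Mettl16 was lower, at 52.5, 54.7 and 49.3 CPM (log2 fold change -0.39, SE 0.11, edgeR adjusted p = 0.0392). This call was lost without any 1 of 5 of the 6 libraries (adjusted p = 0.0987 without mouse 3 and 0.169 without mouse 2 of the isotype group, 0.0888, 0.0750 and 0.112 without mouse 1, 2 and 3 of the anti-LAIR-1 group) and was 0.243 in DESeq2 with the mouse as a block. Myc, at 599.8, 603 and 515 CPM (log2 fold change -0.28, SE 0.08, edgeR adjusted p = 0.0519), and Atf4, at 351, 349 and 287 CPM (-0.21, SE 0.08, adjusted p = 0.163), did not pass.

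The genes whose profile over the 12 libraries was most like the mean standardised profile of the 9 enzymes were Ipo5 (Pearson r = 0.999), Ruvbl1, Ddx18, Phb and Nme2 (each r = 0.997). They were taken from 6785 genes with a mean of at least 10 CPM. Since the libraries form a stimulated and an unstimulated cluster, 21.2% of these genes had an r of at least 0.95, and the likeness mainly describes that split. All 5 rose with anti-CD3, with log2 fold changes from 1.34 for Nme2 to 2.51 for Ruvbl1. With anti-LAIR-1 in stimulated cells all 5 were below 0, from -0.18 for Ddx18 to -0.12 for Phb, beside the median of -0.12 for the members. They were picked on these same libraries.

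With upper quartile scaling the median log2 fold change of all genes with anti-CD3 moved from -0.03 to -0.20 in isotype and from -0.04 to -0.24 in anti-LAIR-1 libraries, and with library totals alone to -0.12 and -0.15. The 9 enzymes rose under each of these scalings in both comparisons. Upper quartile scaling changed the genes called with anti-CD3 and isotype from 3065 higher and 3134 lower to 2637 higher and 3616 lower. Over every alternative the log2 fold change with anti-CD3 and isotype stayed above 0, with the lowest value of 0.49 for Psph.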

How the data were processed

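Counts per gene of 12 libraries, 3 mice in each of 4 groups, were used as deposited by the authors. Per the study's methods, RNA was processed by an adapted CEL-seq protocol, which reads transcript 3′ ends. Read 2 was aligned to the mm10 transcriptome with BWA MEM, reads with several equal matches were discarded, and counts came from the MapAndGo script. Removal of duplicate molecules and use of strand were not given in the sources used here. Each comparison was fitted in edgeR 4.0.16 (R 4.3.3) on the 6 libraries of its 2 groups, and the interaction on all 12, with TMM scaling, filterByExpr, the quasi-likelihood test and a Benjamini-Hochberg threshold of 0.05 across the tested genes. CPM values used TMM-scaled totals. Intervals are at 95%. DESeq2 1.42.0, other scalings and filters, a mouse block and leaving out each library were alternatives. The scripts were tested on simulated data. A permutation test of 3 against 3 cannot go below p = 0.1 and was not used. Mouse numbers in the labels mark libraries of the same animal. Deviations of same-mouse libraries from their group means correlated with r from -0.00682 to 0.0882 (12 pairs), and replicates differed beyond sampling noise (chi-square per degree of freedom 3.61 to 5.34). Named genes were the 9 members, up to 3 genes per pathway list with the lowest adjusted p in the anti-CD3 comparison with isotype or the anti-LAIR-1 comparison with anti-CD3, 3 regulators, and the 5 genes closest in profile. Members and lists were chosen with earlier results of these data known. Of the listed pathway genes, 2 are not reported here and were left out, so list counts and medians describe the others only, to which the naming rule was applied. Gene positions are from GENCODE on mm10 and promoters from RefSeq.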

Additional observations from a re-analysis of the deposited data

Results flagged for a closer look

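Sfxn3, a sideroflexin gene of the list of other serine use, was singled out because its response to anti-CD3 differed between anti-LAIR-1 and isotype libraries by the interaction test. The log2 difference was 1.12 (95% interval 0.69 to 1.55, edgeR adjusted p = 0.00236), and it was called in each of 20 alternative fits. The level fell from 168, 198 and 164 CPM to 25.1, 15.9 and 18.3 CPM with isotype, and from 175, 197 and 209 CPM to 36.1, 47.1 and 56.3 CPM with anti-LAIR-1. It lies outside the 9 enzymes, none of which passed this test.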

How the results depend on the processing

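All 9 enzymes rose with anti-CD3 under every alternative in both comparisons, except that Shmt1 was removed by the filter of at least 10 counts in every library with isotype. The result that moved was the number lower with anti-LAIR-1 in stimulated cells, which was 1 as reported. It was 2 with DESeq2 and 2 without a filter (Mat2a and Mthfd1), 0 with library totals only, 0 with at least 10 counts in every library, 0 with all 12 libraries in 1 fit, and 0 to 1 when a library was left out. With the mouse as a replicate block it was 1 in edgeR and 1 in DESeq2, and the block changed no call of the 9 enzymes in edgeR, while in DESeq2 it took the call of Mthfd1. Over all genes this comparison called 507, with 224 in DESeq2 with the block and 293 to 427 when a library was left out. Fold changes turned sign only where none was called. Left-out libraries gave Psph -0.29 to 0.015 with anti-LAIR-1 in stimulated cells, Shmt1 -0.18 to 0.48 and Mthfd2 -0.50 to 0.27 in unstimulated cells, and interactions of -0.10 to 0.21 for Psph, -0.31 to 0.082 for Mthfd1 and -0.34 to 0.41 for Mthfd2, which was also 0.0090 in DESeq2 with the block. The low unstimulated counts of Shmt1 and Mthfd2 limit what can be said of them without anti-CD3. P-values rest on the spread between libraries of 3 mice, fitted as independent unless blocked. For each gene this spread was partly estimated from the other genes. An interval can thus be narrower than the 3 mice would give for that gene alone.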
